A study of Mus musculus with 16 samples.

Results

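The EGF receptor (EGFR) family and its ligands were followed in KM cells as 10 genes chosen by name, with earlier results of these data known. The genes are the ligands *Areg*, *Ereg*, *Hbegf*, *Tgfa* and *Btc*, the protease *Adam17*, the receptors *Egfr*, *Erbb2* and *Erbb3*, and the receptor inhibitor *Errfi1*. They are 10 of the 20622 genes in the total RNA tables and of the 15235 genes with a transcript in the ribosome footprint tables, and 10 of the 10 passed the filter on low counts in both kinds of library. KM cells are tumour cells grown from the lungs of 1 male mouse whose engineered alleles, *Rosa26* LSL-MYC/LSL-MYC among them and carried by both lines, had been switched on by adenoviral Cre under the promoter of surfactant protein C. KM NTC cells carry Cas9 and a non-targeting guide, and KM 4A2cr cells carry Cas9 and a guide against the coding region of *Eif4a2*, the gene of an RNA helicase that takes part in the initiation and repression of translation. For KM 4A2cr, 4 clones without the protein were pooled, whereas the methods describe no clone selection for KM NTC, so the loss of eIF4A2 and the history of the lines cannot be told apart. Ribosome-protected fragments (RPFs), the stretches of mRNA that ribosomes shield from RNase I, and cytoplasmic total RNA were sequenced from the same lysates of untreated cells. Each line had 4 replicates from experiments on different days, which gave 16 libraries. The p-values therefore measure the spread between these experiments and not between mice or clones. Libraries of the lines were paired by replicate number, and the labels do not say that equal numbers mark the same day.

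EGF-like ligands are made as precursors that span the cell membrane, and metalloproteases such as ADAM17 cut them free. A released ligand binds EGFR, which then pairs with another EGFR, with ERBB2, which has no known ligand of its own, or with ERBB3, whose kinase is weak but which recruits phosphoinositide 3-kinase. The receptors signal to the MAP kinases, and in the lung the pathway is known as a driver of adenocarcinoma and for the repair of injured epithelium.

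RPF libraries held 4512403 to 9621848 counts and total RNA libraries 5350919 to 9312622. RPFs of the targeted gene *Eif4a2* were lower in the KM 4A2cr library of each of the 4 replicate pairs, at 51.0, 88.4, 74.8 and 346 CPM (TMM-normalised counts scaled to a common library size) in replicates 1 to 4 against 97.7, 122, 99.8 and 389 in KM NTC. Its log2 fold change was -0.49 (SE 0.15, adjusted p = 0.0941 by edgeR) in RPFs and -0.18 (SE 0.13, adjusted p = 0.504 by edgeR) in total RNA, where all adjusted p-values are Benjamini-Hochberg values over all genes tested. Without replicates 1, 2 and 3 the RPF change had adjusted p-values of 0.30, 0.377 and 0.351 by edgeR and without replicate 4 one of 0.00304. Replicate 4 stood apart in both lines for this gene, and sequence counts do not show whether a reading frame is intact. Of 8 epithelial markers 8 were present, with summed levels of 4812 to 7297 TPM (a transcript measure scaled for length and library), while fibroblast markers summed to 1.07 to 3.03 and endothelial markers to 0.19 to 1.94. Of 8 alveolar type II markers only *Abca3* and *Lamp3* reached 1 TPM in a library, and *Sftpc* and *Sftpb* were listed at 0 in all 8 libraries. Of 8 macrophage and leukocyte markers 3 reached 1 TPM (*Cd68*, *Cd14* and *Mrc1*), and *Lyz2* and *Adgre1* were listed at 0 throughout.

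In RPFs, 4 of the 10 genes were called at an adjusted p under 0.1 by edgeR, and 4 of the 4 were higher in KM 4A2cr cells: *Btc*, *Tgfa*, *Erbb3* and *Areg*. Among all 10291 genes tested, 10.3% were called, 6.6% in the higher direction. Since the 10 genes were chosen with earlier results known, such shares are a reference and no independent test. The fold change lay above 0 for 9 of the 10, with a median log2 value of 0.35 against -0.0090 over all genes. In total RNA, *Erbb3* and *Tgfa* were called, 2 of 10, both higher, against 6.13% of 10880 genes called and 4.35% called higher. There 10 of 10 lay above 0, with a median of 0.34 against 0.0099 over all genes. In bulk libraries, a change in the share of cells that express a gene and a change of its RNA per cell cannot be told apart.

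**Figure D1:**
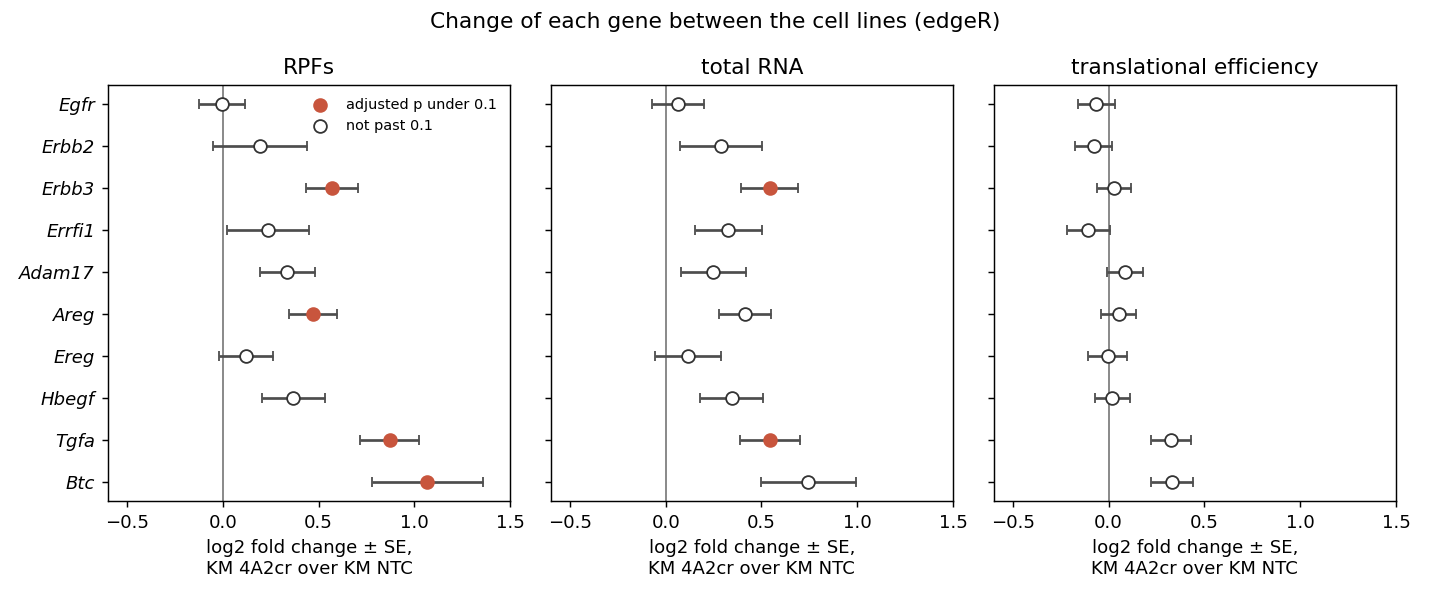
The x axis gives the log2 fold change (KM 4A2cr over KM NTC) with its standard error from edgeR for each of the 10 genes, in RPFs, total RNA and translational efficiency, and filled points passed an adjusted p of 0.1. Filled points are *Erbb3*, *Areg*, *Tgfa* and *Btc* in RPFs and *Erbb3* and *Tgfa* in total RNA, while *Egfr* lies next to 0 in each panel.

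These calls rest on how the replicates were treated. With each replicate left out in turn, the number of the 10 genes called in RPFs was 1, 0 and 0 without replicates 1, 2 and 3, when 2.27%, 1.2% and 0.31% of all genes were called, and 7 without replicate 4, when 33.4% were. In total RNA it was 0, 0 and 0 without replicates 1, 2 and 3, against 1.91%, 1.3% and 0.577% of all genes, and 8 without replicate 4, against 29.8%. Without the replicate number as a block, edgeR called 0 of the 10 in either kind of library and 0 of all genes tested, and 2 of the 10 in RPFs and 1 in total RNA had an unadjusted p under 0.05, against 3.55% and 3.33% of all genes. At an adjusted p of 0.05, 2 of the 10 were called in RPFs and 0 in total RNA, against 4.26% and 2.95% of all genes. In total RNA, upper-quartile factors called 0 of the 10 against 4.97% of all genes, the isoform that carries the RPF counts alone gave 0 against 4.81%, and a filter of 1 CPM in all libraries gave 1 against 5.89%. DESeq2 and a fit with no filter each called 3 of the 10 in total RNA, *Btc* besides *Erbb3* and *Tgfa*, against 5.41% and 7.18%. What sets replicate 4 apart was not tested.

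Among the ligands, mRNA levels per length can be compared through the TPM values. In KM NTC total RNA, *Areg* (ENSMUSG00000029378.6; amphiregulin) was the most abundant of the 10 genes, at 462 ± 277 TPM (SD, n = 4), and among the ligands it was followed by *Hbegf* at 192 ± 71.5, *Tgfa* at 97.7 ± 22.1, *Ereg* at 88.1 ± 50.9 and *Btc* at 35.1 ± 4.92. Of the 9 neighbouring steps in the order of all 10 genes, only that from *Areg* to *Hbegf* had ranges that did not overlap in KM NTC, and none of the 9 did in KM 4A2cr. *Areg* was nevertheless above *Hbegf* in 4 of 4 replicates of each line.

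**Figure D2:**
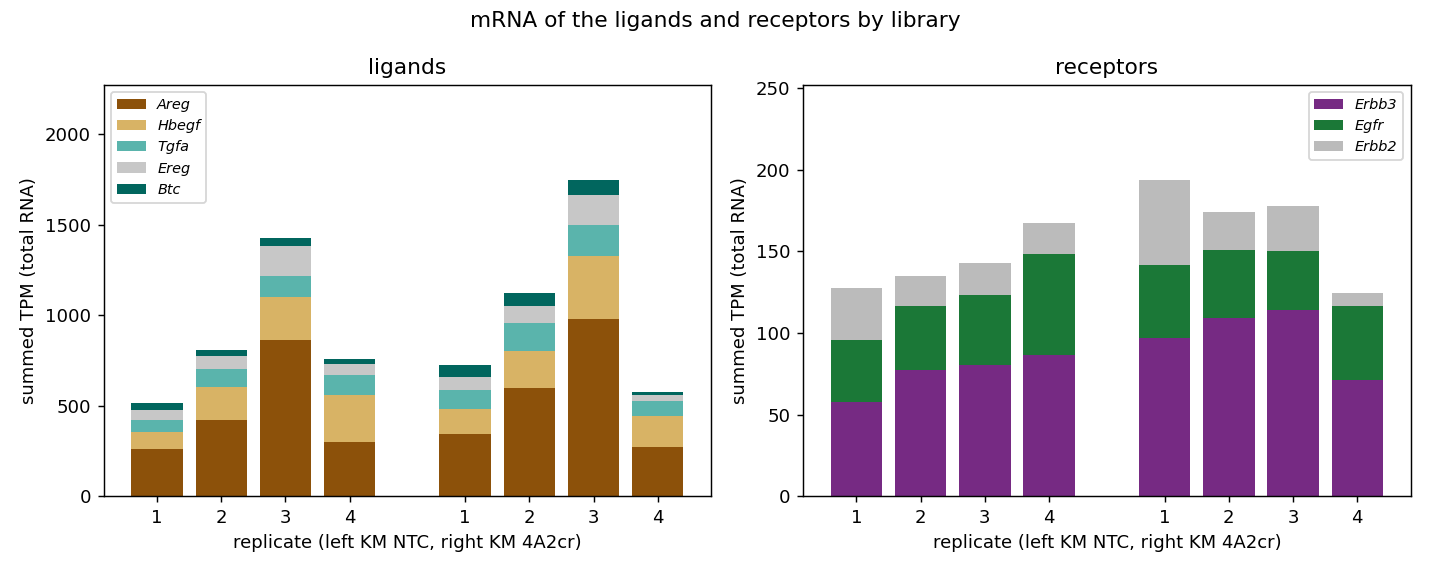
Stacked bars give the TPM of the 5 ligands (left) and the 3 receptors (right) in each total RNA library, 4 of KM NTC and 4 of KM 4A2cr. *Areg* fills about the same share of the ligand bars in both lines, and the ligand bar of replicate 3 is the highest in each line.

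*Areg* made up 50.4, 52.5, 60.8 and 39.8% of the ligand TPM in KM NTC replicates 1 to 4 and 47.6, 53.3, 55.9 and 47.8% in KM 4A2cr, and its share differed between the lines by less than the spread between replicates. The 5 ligands together summed to 875 ± 387 TPM in KM NTC and 1042 ± 523 in KM 4A2cr (SD, n = 4), ranges that overlapped widely. In TPM, replicate 4 was the only pair in which the ligand sum was lower in KM 4A2cr, at 575 against 759.

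*Areg* RPFs were at 222, 364, 811 and 436 CPM in KM NTC replicates 1 to 4 and at 350.2, 535, 983 and 571 in KM 4A2cr. Each KM 4A2cr library lay above its partner, but the lines overlapped, since replicate 3 was high and replicate 1 low in both. Its log2 fold change was 0.47 (SE 0.12, adjusted p = 0.0690 by edgeR) in RPFs. In total RNA it was 0.41 (SE 0.13, adjusted p = 0.131 by edgeR), from 153, 211, 518 and 219 CPM in KM NTC and 214, 319.8, 631 and 268 in KM 4A2cr. The RPF call had an adjusted p of 0.220, 0.378 and 0.259 by edgeR without replicates 1, 2 and 3, 0.00522 without replicate 4 and 0.103 with library size as the only scaling.

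The promoter of *Areg* is shown because the gene leads the ligands in level and shares a pair of elements with *Errfi1*, the inhibitor described further on. In RefSeq (GRCm38.p6), promoters of 7 of the 10 genes were searched, 8 in all, and each covers 250 bases before to 50 after a transcription start. *Hbegf* was left out of the search, and no promoter of *Erbb3* or *Ereg* was at hand, so the counts below do not cover these genes. The windows run from 66 to 21 bases before the start of *Areg* and of the downstream start of *Errfi1*, both on the plus strand, with the cAMP response element TGACGTCA and the TATA box TATAAA in capitals, which do not overlap each other.
Areg, chr5:91139533-91139578: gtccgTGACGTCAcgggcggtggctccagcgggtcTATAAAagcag
Errfi1, chr4:150855004-150855049: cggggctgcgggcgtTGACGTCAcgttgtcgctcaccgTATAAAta
Searched on both strands, TGACGTCA was found in 2 of the 8 promoters of these genes and in 1.79% of 32851 mouse promoters, and TATAAA in 2 of 8 and in 13.6%. Both motifs together were in 56 promoters, or 0.170%. The pattern TGANTCA (N is any base), a loose form of the AP-1 motif, was in 0 of 8 and in 7.81% of all. The GC box GGGCGG was in 5 of 8 and in 35.7%. These are matches of letters and no measure of binding.

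*Ereg* (ENSMUSG00000029377.6), *Areg* and *Btc* follow each other in the RefSeq gene order, after *Epgn*, which had at most 2 counts in any library.  *Ereg*, which encodes epiregulin, had RPF levels of 53.6, 63.9, 178 and 109 CPM in KM NTC and 71.4, 77.4, 182 and 92.4 in KM 4A2cr, with replicate 3 highest in both lines. Its log2 fold change was 0.12 (SE 0.14, adjusted p = 0.648 by edgeR) in RPFs and 0.12 (SE 0.17, adjusted p = 0.773 by edgeR) in total RNA, values that turned negative with library size as the only scale, and neither difference exceeded the replicate spread. Without replicate 4 the total RNA value was 0.32 (adjusted p = 0.0181 by edgeR) and passed. Values for *Btc* are given with those of *Tgfa*.

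*Hbegf* (ENSMUSG00000024486.7), the gene of heparin-binding EGF-like growth factor, had the widest range between KM NTC RPF libraries. Its RPFs were at 120.0, 212, 379 and 601 CPM in KM NTC and at 200.1, 265, 570.3 and 531 in KM 4A2cr, a 5.01-fold range within KM NTC. KM 4A2cr lay higher in pairs 1 to 3 and lower in pair 4. The log2 fold change was 0.37 (SE 0.16, adjusted p = 0.215 by edgeR) in RPFs and 0.34 (SE 0.16, adjusted p = 0.295 by edgeR) in total RNA, and neither was called. Without replicate 4 both were, at 0.55 (adjusted p = 0.00286 by edgeR) and 0.51 (adjusted p = 0.000794 by edgeR).

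*Tgfa* (ENSMUSG00000029999.15), transforming growth factor alpha, had the smallest p of the 10 genes in RPFs. KM NTC libraries held 195, 155, 262 and 188 RPF counts, or 17.7, 15.4, 35.9 and 39.4 CPM, and KM 4A2cr libraries 259, 300, 492 and 200 counts, or 31.3, 36.9, 69.0 and 53.9 CPM. KM 4A2cr was higher in 4 of 4 pairs, with the smallest step in pair 4, while the ranges of the lines overlapped. The log2 fold change was 0.87 (SE 0.15, adjusted p = 0.0196 by edgeR). In total RNA, 169, 198, 299 and 328 CPM in KM NTC stood against 267, 352, 465 and 338 in KM 4A2cr, with a log2 fold change of 0.54 (SE 0.16, adjusted p = 0.0964 by edgeR). Leaving out replicate 1, 2 or 3 gave adjusted p-values of 0.0937, 0.150 and 0.199 by edgeR in RPFs and 0.297, 0.488 and 0.479 in total RNA, and leaving out replicate 4 gave 0.000212 and 1.11e-05.

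*Btc* (ENSMUSG00000082361.7), betacellulin, had the largest fold change of the 10. Its RPFs were at 21.3, 16.6, 26.3 and 41.7 CPM in KM NTC (235, 167, 192 and 199 counts) and at 60.1, 45.9, 73.7 and 32.6 in KM 4A2cr (498, 373, 525 and 121 counts). In pairs 1 to 3 the KM 4A2cr library was higher by log2 ratios of 1.45 to 1.49, and in pair 4 it was lower, with a ratio of -0.36. The lines did not separate, since the KM NTC library of replicate 4 lay above the KM 4A2cr library of its pair. The fitted log2 fold change was 1.07 (SE 0.29, adjusted p = 0.0745 by edgeR) in RPFs and 0.75 (SE 0.25, adjusted p = 0.143 by edgeR) in total RNA, where DESeq2 called it (adjusted p = 0.0670). Without replicate 4 these were 1.49 (adjusted p = 7.51e-06 by edgeR) and 1.11 (adjusted p = 1.03e-07 by edgeR). Without replicates 1, 2 and 3 the RPF call was lost, with adjusted p-values of 0.258, 0.301 and 0.373 by edgeR.

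**Figure D3:**
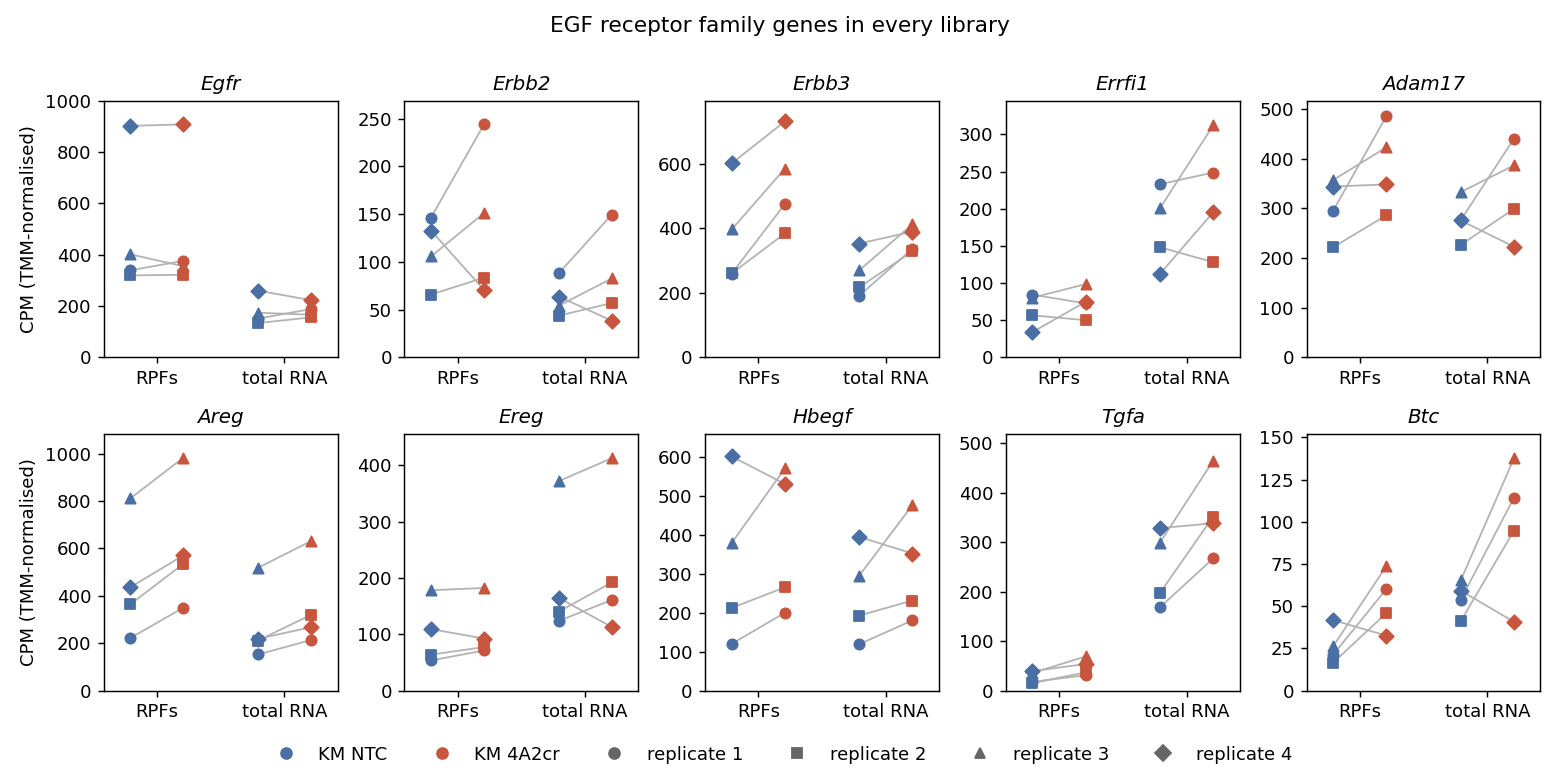
Each panel gives the TMM-normalised CPM of 1 gene in every RPF and total RNA library, with lines joining the KM NTC (blue) and KM 4A2cr (red) libraries of 1 replicate. Lines of *Erbb3*, *Areg* and *Tgfa* rise in all 4 replicates in both kinds of library on this scale (by TPM the total RNA of replicate 4 falls), and the diamonds of replicate 4 cross the others for *Erbb2* and *Btc*.

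*Adam17* (ENSMUSG00000052593.17) encodes the main sheddase of amphiregulin, TGF-alpha and HB-EGF. Its RPFs were at 295, 222, 357 and 344 CPM in KM NTC and 486, 286, 423 and 348 in KM 4A2cr. The gene had the narrowest range of the 10 within KM NTC RPFs, 1.61-fold, and KM 4A2cr was higher in 4 of 4 pairs, though by a log2 ratio of only 0.017 in pair 4, which turned negative when library size alone set the scale. The log2 fold change was 0.34 (SE 0.14, adjusted p = 0.193 by edgeR) in RPFs and 0.25 (SE 0.17, adjusted p = 0.485 by edgeR) in total RNA, neither of them called. Without replicate 4 both passed, at adjusted p-values of 0.0114 and 0.00312 by edgeR.

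*Egfr* (ENSMUSG00000020122.17) was called in neither kind of library. RPFs were at 339, 319, 401 and 901 CPM in KM NTC and at 375, 321, 354 and 907 in KM 4A2cr, replicates 1 to 4. Within pairs the lines differed by log2 ratios of only -0.18 to 0.15, whereas replicate 4 stood far above the other 3 replicates in both lines. The log2 fold change was -0.0021 (SE 0.12, adjusted p = 0.996 by edgeR) in RPFs and 0.063 (SE 0.14, adjusted p = 0.857 by edgeR) in total RNA, with 133 to 259 CPM in KM NTC and 155 to 222 in KM 4A2cr, and the sign of the total RNA value changed with library size as the only scale.

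The *Egfr* libraries of replicate 4 also differed in their isoforms. The long transcript ENSMUST00000020329.13 (10208 bases), on which RPFs were counted, took 83.3, 84.7, 83.5 and 74.7% of the expected counts of the gene in KM NTC and 84.1, 84.9, 85.6 and 65.6% in KM 4A2cr. The short transcript ENSMUST00000102884.10 (2943 bases) took the rest. Its TPM was 34 and 29.5 in replicate 4 of KM NTC and KM 4A2cr, against 13.9 to 18.1 in the other 6 libraries. Fragments from coding sequence that both transcripts share would be counted on the long one, and RSEM assigns shared reads by estimate. The other genes had 1 isoform each in the tables, except *Adam17* with 3 and *Errfi1* with 2.

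*Erbb2* (ENSMUSG00000062312.6), the co-receptor without a ligand, had the lowest mean TPM of the 10 in both lines, 22.2 ± 6.52 in KM NTC and 27.7 ± 18.1 in KM 4A2cr (SD, n = 4). Its RPFs were at 146, 65.7, 106 and 133 CPM in KM NTC and 244, 83.4, 151 and 70.3 in KM 4A2cr. KM 4A2cr was higher in pairs 1 to 3 and lower in pair 4, with log2 ratios of 0.74, 0.34, 0.52 and -0.92. The fit gave 0.19 (SE 0.24, adjusted p = 0.672 by edgeR) in RPFs and 0.29 (SE 0.21, adjusted p = 0.527 by edgeR) in total RNA. Without replicate 4 the RPF value was 0.54 (adjusted p = 0.00296 by edgeR) and that in total RNA 0.59 (adjusted p = 0.000328 by edgeR).

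*Erbb3* (ENSMUSG00000018166.9) was the only receptor called with all replicates in the fit, and it was called in both kinds of library. RPFs were at 259, 260.0, 397 and 602 CPM in KM NTC and at 476, 384, 586 and 732 in KM 4A2cr. Each KM 4A2cr library exceeded its partner, and replicate 4 was the highest in both lines, so the ranges overlapped. The log2 fold change was 0.57 (SE 0.13, adjusted p = 0.0497 by edgeR) in RPFs and 0.54 (SE 0.15, adjusted p = 0.0826 by edgeR) in total RNA, where KM NTC had 191, 217, 269.8 and 353 CPM and KM 4A2cr 337, 329, 413 and 389.8. Adjusted p-values by edgeR without replicates 1, 2 and 3 were 0.184, 0.279 and 0.278 in RPFs and 0.290, 0.398 and 0.462 in total RNA, and without replicate 4 they were 0.000708 and 2.14e-05. *Erbb3* made up 52.7 ± 5.54% of the TPM of the 3 receptors in KM NTC and 58.5 ± 6.34% in KM 4A2cr (SD, n = 4), a difference close to the SD within each line. By replicate, its share was 45.2, 57.4, 56.3 and 51.8% in KM NTC and 50.1, 62.8, 64.0 and 57.1% in KM 4A2cr. The share was thus higher in KM 4A2cr in each pair, while the ranges of the lines overlapped.

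*Errfi1* (ENSMUSG00000028967.11), also known as MIG6, encodes a feedback inhibitor that binds the EGFR kinase domain. Its RPFs were at 84.3, 56.5, 80.3 and 33.8 CPM in KM NTC and 72.5, 49.8, 98.3 and 74.6 in KM 4A2cr. KM 4A2cr was lower in pairs 1 and 2 and higher in pairs 3 and 4, with log2 ratios of -0.22, -0.18, 0.29 and 1.14. The fit gave 0.23 (SE 0.21, adjusted p = 0.550 by edgeR) in RPFs and 0.33 (SE 0.17, adjusted p = 0.360 by edgeR) in total RNA. Without replicate 4 the RPF value was -0.034. In RPFs, *Errfi1* was the gene for which pair 4 was the highest pair, while for *Erbb2*, *Erbb3*, *Ereg*, *Hbegf*, *Tgfa*, *Btc* and *Adam17* it was the lowest.

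**Figure D4:**
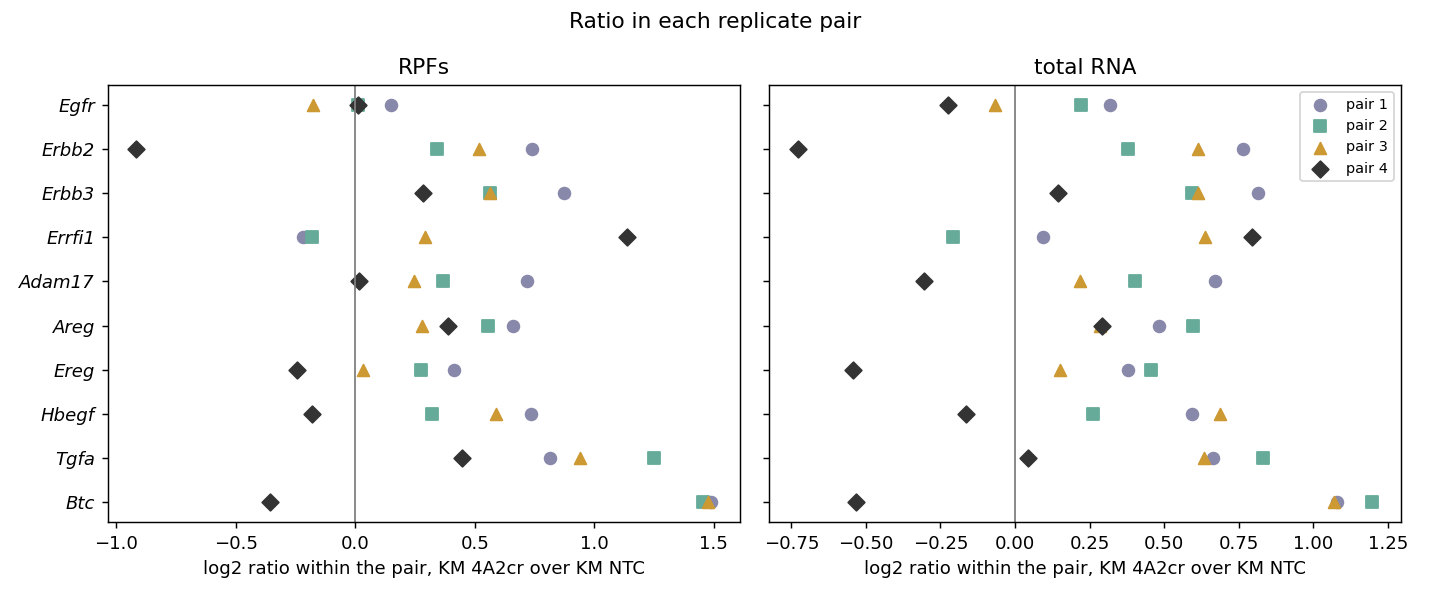
The x axis gives the log2 ratio of KM 4A2cr over KM NTC (TMM-normalised CPM, prior count 2) within each of the 4 replicate pairs, for RPFs (left) and total RNA (right). Pair 4 (black diamonds) lies to the left of the other pairs for most genes and to the right for *Errfi1*.

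Within pairs, *Erbb3*, *Areg*, *Tgfa* and *Adam17* were higher in KM 4A2cr in 4 of 4 pairs in RPFs, 4 of 10 genes, against 14.1% of all genes. *Erbb3*, *Areg* and *Tgfa* were so in total RNA, against 12.4% of all genes. For no gene of the 10 did the libraries of the lines separate without overlap, as 2.13% of all genes did in RPFs and 1.97% in total RNA. An exact 2-sided sign-flip test over 4 pairs cannot go below p = 0.13, the value it gave for each gene with 4 of 4 pairs. Pair 4 depended on the scaling: with library size alone, 3 of 10 genes were higher in 4 of 4 pairs in RPFs and 1 of 10 in total RNA, and by TPM 0 of 10. The 14.1% and 12.4% of all genes hold for TMM, and the shares under these other scalings were not computed. By TPM, *Erbb3* of replicate 4 was at 86.8 in KM NTC and 71.2 in KM 4A2cr, *Areg* at 302 and 274, and *Tgfa* at 108 and 82.9, so their direction in that pair flipped. In pairs 1 to 3, by contrast, 9 or 10 of the 10 genes lay above 0 in total RNA by each of the 3 scalings. With TMM, 46.7, 52.8 and 50.4% of all genes lay above 0 in these pairs.

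With library size alone as the scale, the median over all genes moved to a log2 fold change of -0.14 in RPFs and -0.15 in total RNA. The median of the 10 genes then lay at 0.22 and 0.18, with 8 of 10 above 0 in each kind, against 33.7% and 30.2% of all genes. Calls then numbered 3 of 10 and 0 of 10, against 15.7% and 10.4% of all genes. Among all genes called, 679 were higher and 383 lower in RPFs with TMM, against 482 and 1137 with library size only, and in total RNA 473 and 194 against 262 and 868. Neither scaling measures how much footprint or RNA a whole cell holds.

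Translational efficiency, the change in RPFs relative to the change in mRNA of the same lysates, was called for 0 of the 10 genes by edgeR, against 2.87% of 9989 genes. DESeq2 called 0 as well, against 3.11% of the 4373 genes to which it gave an adjusted p. By edgeR, 2 of the 10 had an unadjusted p under 0.05, against 14.1% of all genes. These were *Tgfa*, with a log2 change of 0.33 (SE 0.11, adjusted p = 0.130 by edgeR), and *Btc*, with 0.33 (SE 0.11, adjusted p = 0.144 by edgeR). The ratio of RPF to RNA was higher in KM 4A2cr in 4 of 4 pairs for both, by 0.15, 0.42, 0.30 and 0.40 for *Tgfa* and 0.41, 0.26, 0.41 and 0.18 for *Btc* on the log2 scale. The share of all genes with this ratio higher in 4 of 4 pairs was not computed. The other 8 genes had log2 changes between -0.11 and 0.088, with standard errors of 0.09 to 0.11. Without replicate 4, *Btc* (0.39, adjusted p = 0.0422 by edgeR) and *Tgfa* (0.32, adjusted p = 0.0870 by edgeR) passed, against 7.94% of all genes, and without replicate 1, 2 or 3, when 0.151%, 0.191% and 0.159% of all genes were called, neither did. For *Egfr*, the log2 ratios of RPF to RNA were 1.17, 1.26, 1.21 and 1.80 in KM NTC. In KM 4A2cr they were 1.00, 1.05, 1.10 and 2.03, and replicate 4 was the highest in each line. Every other gene of the 10 except *Errfi1* also had its highest ratio in replicate 4 of each line. This was thus not particular to *Egfr*.

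Of 62 other genes of the pathway, 53 were tested in each kind of library. In RPFs, 6 of 53 were called, all 6 higher in KM 4A2cr, against 10.3% of all genes, and the median log2 fold change was 0.10. In total RNA 5 of 53 were called, 3 higher and 2 lower, against 6.13% of all genes, or 4.35% called higher and 1.78% lower. The 2 lower calls, *Vav3* and *Stam2*, were lost by DESeq2, which called 5 higher and 0 lower, and with the RPF isoform alone, which gave 3 higher and 0 lower. Without replicate 4 the counts were 16 and 16, against 33.4% and 29.8% of all genes, and with replicate 1, 2 or 3 left out they lay between 0 and 1 in both kinds of library.

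Of 13 genes for shedding and ligand trafficking, 11 were tested and 5 called in RPFs, all 5 higher, against 10.3% of all genes called and 6.6% called higher. There 10 of 11 lay above 0, against 48.9% of all genes, with a median log2 fold change of 0.50. The pathway lists, too, were chosen with earlier results of these data known. *Furin*, a convertase that activates the precursors of ADAM proteases and growth factors, had the largest RPF change of the list. Its RPFs were at 135, 28.4, 81.8 and 76.8 CPM in KM NTC and 404, 88.2, 275 and 98.3 in KM 4A2cr, higher in 4 of 4 pairs with the smallest step in pair 4. The log2 fold change was 1.35 (SE 0.22, adjusted p = 0.0158 by edgeR) in RPFs and 1.03 (SE 0.17, adjusted p = 0.0111 by edgeR) in total RNA. *Cnih1*, a cargo receptor for the export of growth factor precursors from the endoplasmic reticulum, rose by 0.63 (SE 0.13, adjusted p = 0.0344 by edgeR) in RPFs. *Adam10*, the sheddase of betacellulin and EGF, rose by 0.55 (SE 0.16, adjusted p = 0.0836 by edgeR), *Adam8*, another metalloprotease, by 0.54 (SE 0.14, adjusted p = 0.0604 by edgeR), and *Rhbdf1*, the inactive rhomboid that escorts ADAM17, by 0.50 (SE 0.13, adjusted p = 0.0713 by edgeR). In total RNA, *Adam8* was called besides *Furin*, at 0.64 (SE 0.16, adjusted p = 0.0641 by edgeR), which makes 2 of 11 against 6.13% of all genes, and 11 of 11 lay above 0 against 51.6%. Without replicate 1, 2 or 3 the RPF calls of *Cnih1*, *Adam10*, *Adam8* and *Rhbdf1* were lost, and that of *Furin* had adjusted p-values of 0.101, 0.0991 and 0.210 by edgeR.

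**Figure D5:**
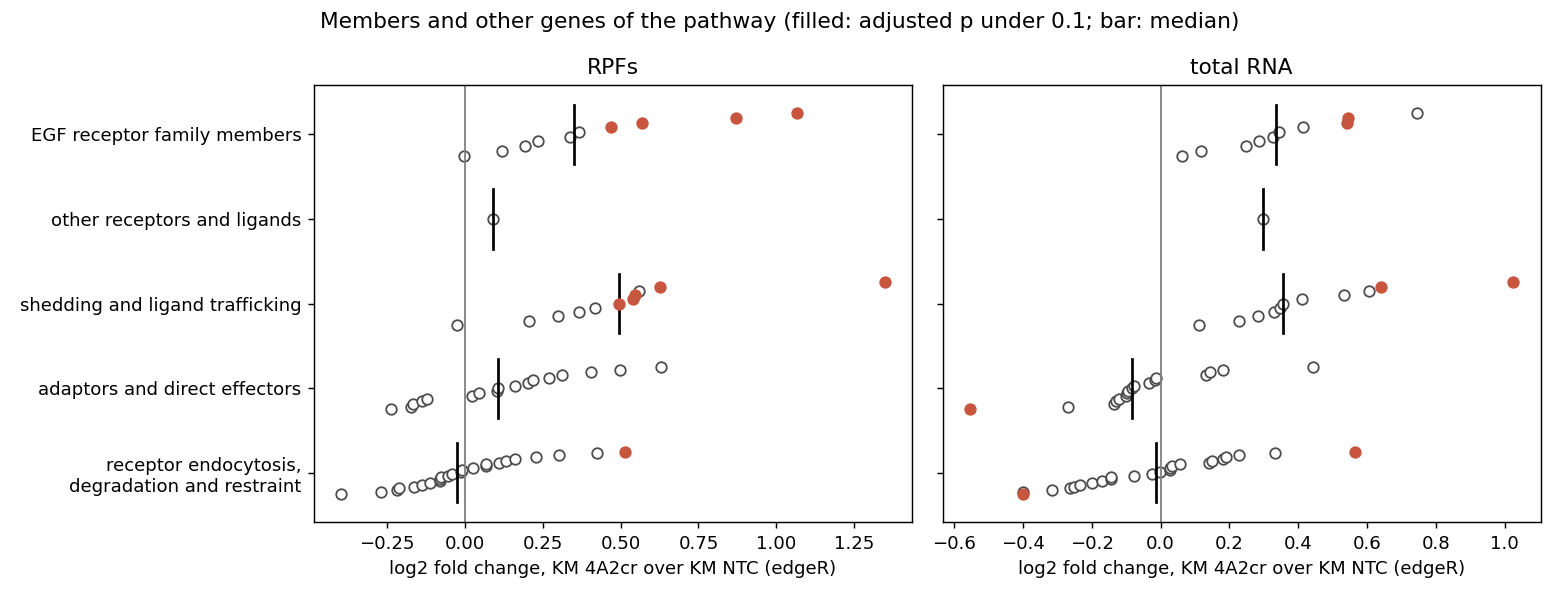
Each point is the log2 fold change of 1 gene (KM 4A2cr over KM NTC, edgeR) in RPFs (left) and total RNA (right), by list, with filled points past an adjusted p of 0.1 and a bar at the median. The shedding and trafficking genes have a median of 0.50 in RPFs, and the adaptors have 0 filled points there.

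Of 18 adaptors and direct effectors, 17 were tested and 0 called in RPFs by edgeR, with 3 of 17 at an unadjusted p under 0.05 against 23.4% of all genes. Those 3 were *Nck2* at 0.50 (SE 0.16, adjusted p = 0.112 by edgeR), *Gab2* at 0.63 (SE 0.23, adjusted p = 0.140 by edgeR) and *Crk* at 0.31 (SE 0.13, adjusted p = 0.203 by edgeR). They encode adaptor or docking proteins of activated receptors. In total RNA, the exchange factor gene *Vav3* was lower, at -0.55 (SE 0.13, adjusted p = 0.0534 by edgeR). *Nck2* was the pathway gene called in translational efficiency, 1 of 53 against 2.87% of all genes, at 0.59 (SE 0.15, adjusted p = 0.0631 by edgeR). DESeq2 gave no adjusted p for this change. RPFs of *Nck2* ranged from 8.84 to 13.1 CPM in KM NTC and from 13.9 to 17.2 in KM 4A2cr, without overlap, as for 2.13% of all genes, while its total RNA overlapped. Without replicates 1, 2 and 3 its efficiency had adjusted p-values of 0.219, 0.281 and 0.204 by edgeR, and *Vav3* in total RNA 0.181, 0.286 and 0.269.

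Of 24 genes on the list for receptor endocytosis, degradation and restraint, 24 were tested. *Lrig2*, which encodes a membrane protein of the LRIG family, was called in RPFs at 0.51 (SE 0.14, adjusted p = 0.0698 by edgeR) and in total RNA at 0.56 (SE 0.13, adjusted p = 0.0534 by edgeR). *Stam2*, part of the endosomal machinery that sorts receptors for degradation, was lower in total RNA at -0.40 (SE 0.12, adjusted p = 0.0977 by edgeR). Both of these genes lost their calls without replicate 1, 2 or 3. *Lrig1*, a negative regulator of EGFR-family receptors, had an RPF log2 fold change of 0.42 (SE 0.13, adjusted p = 0.1003 by edgeR), just outside the threshold, and *Ptpn1*, a phosphatase of activated receptors, one of -0.40 (SE 0.18, adjusted p = 0.215 by edgeR). The list as a whole had 10 of 24 genes above 0 in RPFs, against 48.9% of all genes, and a median of -0.03.

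Of 7 other receptors and ligands, only *Nrg1*, a ligand of ERBB3, passed the filter. Its log2 fold change was 0.091 (SE 0.14, adjusted p = 0.737 by edgeR) in RPFs and 0.30 (SE 0.15, adjusted p = 0.319 by edgeR) in total RNA, and the RPF value turned negative with library size as the only scale. *Erbb4*, *Egf*, *Epgn*, *Nrg2*, *Nrg3* and *Nrg4* had at most 7 RPF counts and 11 total RNA counts in any library, so their change was not measurable at this depth.

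Across the 8 RPF libraries, the genes whose log2 CPM followed *Egfr* most closely were *Pgf* (Pearson r = 0.996), *Cd68* (r = 0.990) and *Itm2c* (r = 0.988). Those closest to *Areg* were *Spry2* (r = 0.973), *Trnau1ap* (r = 0.947) and *Sft2d2* (r = 0.942). The 8 points fall into pairs by replicate number, and the 2 libraries of replicate 4 are far above the other 6 for *Egfr*. *Cd68* is on the macrophage and leukocyte list, whose summed level was 73.2 to 237 TPM in KM NTC and 87.7 to 163 in KM 4A2cr, and its part in the *Egfr* values was not tested. None of these 6 genes was called in RPFs, with log2 fold changes of 0.02 to 0.41.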

How the data were processed

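Libraries came from 2 cell lines, KM NTC and KM 4A2cr, with RPFs and cytoplasmic total RNA in 4 replicates each. The RPF tables that the authors deposited give whole-number counts for the most abundant transcript of each gene (GENCODE vM27). These counts came after Cutadapt 1.18, BBmap and UMI-tools 1.0.1. They leave out several codons at each end of the coding sequence. The authors deposited RSEM 1.3.3 expected counts and TPM values per isoform for total RNA, aligned with Bowtie2 2.3.5.1. A transcript not listed in an RPF table was taken as 0. Expected counts were summed over the isoforms of a gene and rounded, and TPM values were summed.

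Tests used edgeR 4.0.16 in R 4.3.3 (filterByExpr, TMM, glmQLFit, glmQLFTest, Benjamini-Hochberg adjustment over all genes, threshold 0.1), with terms for line and replicate. For translational efficiency, 1 model held all 16 libraries, and the interaction between line and library type was tested. CPM values were TMM-normalised, with a prior count of 2 on the log2 scale. The replicate number was a term because the experiments were done on different days. The labels do not say that equal numbers in KM NTC and KM 4A2cr mark the same day. This match between the lines was inferred from the libraries. Same-numbered libraries deviated from their line means together, with correlations of 0.575 to 0.782 in RPFs and 0.611 to 0.756 in total RNA. No replicate was a copy of another, since the chi-square per degree of freedom was at least 22.1. The tests were run on simulated counts first.

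The 10 genes and the lists were chosen with earlier results of these data known. All 10 genes are named, with every pathway gene called, the 3 smallest RPF p-values in each list, and the 3 genes most like the receptor and the ligand with the highest RPF level. Alternatives were no replicate block, DESeq2 1.42.0, other scalings and filters, a threshold of 0.05, each replicate left out, and the RPF isoform alone. Coding lengths were not used here, so RPF levels are not compared between genes, with 1 exception. Mean RPF CPM, not scaled for length, picked *Egfr* and *Areg* for the search of most like genes. Part of the genotype of the cells is not reported here.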

Additional observations from a re-analysis of the deposited data

Results flagged for a closer look

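In 40 groups of 4 libraries (10 genes in each line and kind of library), 3 had a highest library whose gap to the next exceeded 0.83 of the range, a limit that chance alone passes in about 1 of 20 groups. Both *Egfr* RPF groups stood out through replicate 4, at 901 CPM in KM NTC against 319 to 401 in the other 3 libraries and at 907 CPM in KM 4A2cr against 321 to 375. *Ereg* total RNA in KM NTC stood out through replicate 3, at 372 CPM against 124 to 165 in the other 3.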

How the results depend on the processing

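The alternatives gave 380 values for the 10 genes, of which 313 kept direction and side of the threshold, 35 lost a call, 13 gained one and 19 changed sign. Only genes called in the main fit could lose a call. Of 12 alternatives in RPFs, *Erbb3* lost its call in 4, *Areg* in 6, *Tgfa* in 3 and *Btc* in 5. Of 13 in total RNA, *Erbb3* lost its call in 8 and *Tgfa* in 9. In RPFs, the 4 of the 10 genes called became 0 to 7 with a replicate left out, 0 without the replicate block and 2 at a threshold of 0.05. In total RNA, the 2 called became 0 to 8 with a replicate left out, 0 without the replicate block, at 0.05, with upper-quartile factors, with library size only or with the RPF isoform alone, 1 with 1 CPM required in all libraries, and 3 by DESeq2 or with no filter. In translational efficiency, 0 became 0 to 2 with a replicate left out. Of the other pathway genes, 6 called in RPFs became 0 to 16 with a replicate left out, 0 without the replicate block and 2 at 0.05, and 5 called in total RNA became 0 to 16, 0 without the replicate block, 1 at 0.05 and 3 with the RPF isoform alone. All genes called numbered 1062 in RPFs, 667 in total RNA and 287 in translational efficiency, and 0 in each without the replicate block. They numbered 438, 321 and 75 at 0.05, 1619, 1130 and 133 with library size only, and 32 to 3469, 63 to 3260 and 15 to 800 with a replicate left out, and with no filter 1268 in total RNA and 470 in translational efficiency, where DESeq2 called 136 of the 4373 genes with an adjusted p. Sign changes on the log2 scale follow, with the main value in parentheses. *Egfr* in RPFs (-0.0021) became 0.0037 by DESeq2, 0.0036 with DESeq2 size factors and -0.053 to 0.086 with a replicate left out. *Egfr* in total RNA (0.063) became -0.094 with library size only and -0.023 to 0.15 with a replicate left out. *Erbb2* in RPFs (0.19) became -0.00075 to 0.54 with a replicate left out. *Errfi1* in RPFs (0.23) became -0.034 to 0.39 with a replicate left out. *Errfi1* in translational efficiency (-0.11) became -0.20 to 0.013 with a replicate left out. *Ereg* in RPFs (0.12) became -0.0077 with library size only. *Ereg* in total RNA (0.12) became -0.040 with library size only and -0.00049 to 0.32 with a replicate left out. *Ereg* in translational efficiency (-0.0042) became 0.0097 by DESeq2, 0.0055 with DESeq2 size factors, 0.0012 with upper-quartile factors, 0.024 with library size only, 0.00090 with no filter and -0.073 to 0.071 with a replicate left out. *Hbegf* in translational efficiency (0.020) became -0.014 to 0.093 with a replicate left out. *Nrg1* in RPFs (0.091) became -0.037 with library size only. *Adam8* in translational efficiency (-0.097) became -0.16 to 7.41e-05 with a replicate left out. *Crk* in total RNA (-0.017) became -0.050 to 0.036 with a replicate left out. *Lrig2* in translational efficiency (-0.049) became -0.073 to 0.014 with a replicate left out. The cause of these changes was not tested. RPF counts of *Tgfa* and *Btc* were 121 to 525 in a library, and the part of depth in their errors was not tested.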
